A study of Mus musculus with 10 samples.

Results

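The 10 genes described here encode subunits of the polycomb repressive complexes PRC1 and PRC2: Ezh1, Ezh2, Eed, Suz12, Rbbp4, Rbbp7, Jarid2, Phf19, Mtf2 and Bmi1. They were taken by name from 18194 gene symbols on the array, and all 10 passed the filter on low values, as 17204 of the 18194 symbols did. They were measured in splenic B cells on 10 arrays in 3 groups. Germinal centre (GC) B cells came from B1-8 mice (VH186.2-Tg JH KO, n = 3 arrays) and from V23 mice (V23-Tg JH KO, n = 3). In both lines an immunoglobulin heavy chain transgene stands in for the JH locus, which is deleted, and both were immunized with 50 µg of NP-CGG, a hapten on a carrier protein, in alum and sorted on day 14 as λ+ PNA+ B220+ cells. Naive B cells came from unimmunized Balb/c mice (n = 4), and the background strain of all 3 groups is Balb/c. The labels do not give the age of the mice or say that replicates are separate animals, so p-values may measure only technical spread. Transgene, immunization and sorting stain differ between GC and naive cells together and cannot be told apart.

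PRC2 methylates a lysine of histone H3, a mark of silenced genes. Its core holds a catalytic subunit, Ezh2 or Ezh1, with Eed, Suz12 and the histone-binding proteins Rbbp4 and Rbbp7. Accessory proteins divide PRC2 into 2 forms: polycomb-like proteins (Phf1, Mtf2 or Phf19) mark the form called PRC2.1, and Jarid2 with Aebp2 marks PRC2.2. PRC1, which holds Bmi1 or a related protein, attaches ubiquitin to a histone and compacts chromatin. In mice, GC formation is known to need Ezh2, and activating EZH2 mutations occur in human lymphomas that arise from GC B cells.

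Values are log2 probe set signals, 1 probe set per gene (the one with the highest mean over the 10 arrays), and differences are log2 fold changes ± standard error from 1 limma model of all arrays, with Benjamini-Hochberg adjustment over all tested genes and a threshold of 0.05. Levels of different probe sets are not comparable, so only changes are set side by side. In the mean of both GC groups minus naive, 7 of the 10 genes rose and 3 fell. Over all tested genes 41.5% were called in that comparison, 20.5% higher and 21.0% lower. The rising genes were Ezh2, Eed, Suz12, Rbbp4, Rbbp7, Phf19 and Mtf2, and the falling ones Ezh1, Jarid2 and Bmi1. In all 10 the 6 GC arrays lay wholly on one side of the 4 naive arrays, 7 higher and 3 lower, against 35.5% of all tested genes, 17.0% higher and 18.5% lower. The median log2 fold change of the 10 genes was 0.61, and that of all tested genes 0.06. Fewer cells with a transcript and less transcript per cell cannot be told apart in these bulk samples.

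**Figure D1:**
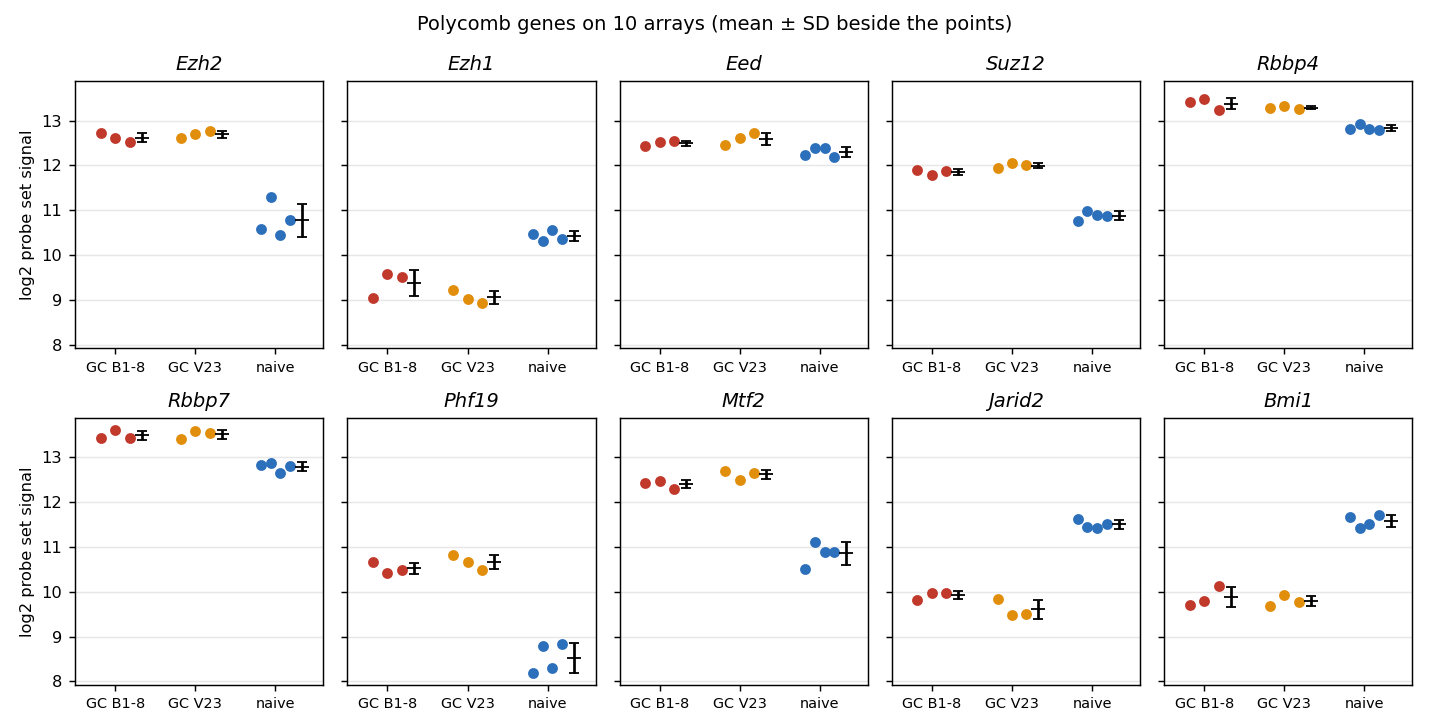
Log2 probe set signal (y axis) of each polycomb gene on each array; points are arrays of GC B1-8 (red), GC V23 (orange) and naive B cells (blue), and the black bars are the mean ± SD of each group. The GC arrays lie above the naive arrays for 7 genes and below them for Ezh1, Jarid2 and Bmi1, and for Eed the gap between the nearest arrays is 0.02.

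The catalytic subunits moved in opposite directions. Ezh2 (1416544_at), the methyltransferase of dividing cells, had log2 signals of 12.72, 12.62 and 12.52 on the GC B1-8 arrays and 12.60, 12.71 and 12.76 on the GC V23 arrays, against 10.58, 11.29, 10.44 and 10.78 on the naive arrays. The 6 GC arrays spanned 0.24 and the naive arrays 0.85, with naive replicate 2 the highest naive array, and the groups did not overlap. Ezh2 rose by 1.88 ± 0.16 (3.69-fold, limma adjusted p = 2.91e-05). Ezh1 (1449023_a_at), the weaker methyltransferase that resting cells keep, had signals of 9.03, 9.57 and 9.52 in GC B1-8 and 9.22, 9.01 and 8.93 in GC V23, against 10.47, 10.32, 10.55 and 10.35 in naive cells. Here all GC arrays were lower, and the naive arrays spanned 0.24. Ezh1 fell by 1.21 on the log2 scale (SE 0.13, 2.31-fold lower, limma adjusted p = 9.11e-05).

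Set against each other on the same array, Ezh2 minus Ezh1 was higher by 3.09 (log2) in GC than in naive arrays, by 2.90 in B1-8 and 3.29 in V23. The difference was 3.69, 3.05 and 3.01 on the B1-8 arrays and 3.38, 3.70 and 3.83 on the V23 arrays, against 0.10, 0.98, -0.11 and 0.42 on the naive arrays. The change in this difference shows that the 2 genes changed unequally; its size on a single array says nothing of which transcript was more abundant.

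The Ezh1 result rests on its brightest probe set. Of its 4 probe sets, 1449023_a_at fell and the other 3 did not pass the test in a fit of all single-symbol probe sets (which called 39.7% of all tested probe sets, 19.0% higher and 20.7% lower). The next brightest, 1418290_a_at, averaged 7.46 in GC and 7.34 in naive arrays, a change of 0.12 ± 0.13 (adjusted p = 0.513). The remaining Ezh1 probe sets averaged 5.56 or less over all arrays, where signals are imprecise, and changed by -0.68 ± 0.42 and 1.05 ± 0.42. With the mean of all 4 probe sets the fall was no longer called (-0.18, adjusted p = 0.338). Ezh2 has 1 probe set, so no second one could be set beside it.

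The other core subunits rose by less than Ezh2. Suz12 (1420021_s_at), which holds the complex together, had signals of 11.90, 11.78 and 11.88 in GC B1-8 and 11.94, 12.05 and 12.00 in GC V23, against 10.76, 10.99, 10.89 and 10.88 in naive cells. The lowest GC array stood 0.80 above the highest naive array. Suz12 rose by 1.05 ± 0.07 (2.06-fold, limma adjusted p = 1.10e-05). Of its 6 probe sets 4 rose, by 0.99 to 1.29, and the 2 that did not pass averaged 7.10 and 6.89 with changes of 0.46 ± 0.24 and 0.50 ± 0.56.

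Eed (1448653_at), the subunit that binds the methyl mark, had signals of 12.42, 12.51 and 12.54 in GC B1-8 and 12.46, 12.60 and 12.73 in GC V23, against 12.24, 12.39, 12.40 and 12.20 in naive cells. The lowest GC array, B1-8 replicate 1, was 0.02 above the highest naive array. The change was 0.24 ± 0.08 (1.18-fold, limma adjusted p = 0.0474), the smallest of the 10 genes. This call is at the edge of the threshold. Its adjusted p lay between 0.0577 and 0.123 when any array other than V23 replicate 1 was left out, and was 0.484 with quantile normalization. The other Eed probe set, 1453830_at, was at -0.20 ± 0.24 (adjusted p = 0.561).

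Rbbp4 and Rbbp7, closely related histone chaperones that also serve other chromatin complexes, rose together. Rbbp4 (1434892_x_at) had signals of 13.41, 13.49 and 13.24 in GC B1-8 and 13.29, 13.33 and 13.26 in GC V23, against 12.81, 12.93, 12.81 and 12.78 in naive cells. Rbbp7 (1456227_x_at) had signals of 13.44, 13.61 and 13.44 in GC B1-8 and 13.40, 13.60 and 13.54 in GC V23, against 12.83, 12.87, 12.65 and 12.82 in naive cells. Neither gene's groups overlapped. Rbbp4 rose by 0.50 ± 0.08 (limma adjusted p = 0.000701) and Rbbp7 by 0.71 ± 0.08 (limma adjusted p = 0.000146). Probe sets ending in _x_at can share sequence with related genes, so the changes of this pair are uncertain. Without such probe sets Rbbp4 was read from 1454791_a_at and rose by 1.02, and Rbbp7 from 1415775_at, by 0.85. Another Rbbp4 probe set, 1454875_a_at, also rose by 1.02, and the dimmest, 1456260_at, was at -0.36 ± 0.28 (adjusted p = 0.348).

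The accessory subunits divided. Phf19 (1427920_at), a polycomb-like protein, had signals of 10.67, 10.42 and 10.49 in GC B1-8 and 10.82, 10.67 and 10.49 in GC V23, against 8.19, 8.79, 8.29 and 8.84 in naive cells. Naive replicates 2 and 4 stood above the other naive arrays, and all GC arrays stood at least 1.58 above both. Phf19 rose by 2.07 ± 0.16 (4.19-fold, limma adjusted p = 1.62e-05). Its second probe set, 1431857_at, averaged 4.79 and did not pass the test (-0.07 ± 0.17), and with the mean of all probe sets of each gene Phf19 rose by 1.00, less than Ezh2 (1.88) and Mtf2 (1.77).

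Mtf2 (1418516_at), a second polycomb-like protein, had signals of 12.44, 12.47 and 12.30 in GC B1-8 and 12.70, 12.50 and 12.66 in GC V23, against 10.52, 11.12, 10.89 and 10.89 in naive cells. The groups were separated by 1.18. Mtf2 rose by 1.66 ± 0.12 (3.16-fold, limma adjusted p = 1.36e-05). Of its 6 probe sets 5 rose. The 4 brightest of them gave 1.47 to 1.88, and the dim 1459811_at, with naive arrays below log2 4 except replicate 3, gave 3.71 ± 0.62.

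Jarid2 (1422698_s_at), which brings PRC2.2 to chromatin, went the other way. Its signals were 9.81, 9.98 and 9.97 in GC B1-8 and 9.84, 9.48 and 9.49 in GC V23, against 11.64, 11.45, 11.42 and 11.52 in naive cells. The highest GC array was 1.44 below the lowest naive array. Jarid2 fell by 1.74 on the log2 scale (SE 0.10, 3.35-fold lower, limma adjusted p = 4.57e-06), and its other probe sets changed by -2.12 ± 0.14 and -1.96 ± 0.14. Mtf2 minus Jarid2 on the same array was higher by 3.40 in GC than in naive arrays, and Phf19 minus Jarid2 by 3.81.

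Bmi1 (1417493_at), the PRC1 subunit known for restraining the Cdkn2a locus, had signals of 9.71, 9.79 and 10.13 in GC B1-8 and 9.69, 9.92 and 9.78 in GC V23, against 11.67, 11.41, 11.51 and 11.72 in naive cells. The groups were separated by 1.29. Bmi1 fell by 1.74 on the log2 scale (SE 0.11, 3.35-fold lower, limma adjusted p = 7.31e-06), and its second probe set changed by -2.29 ± 0.17. Over the 32 probe sets of the 10 genes, 16 rose, 6 fell and 10 did not pass. No gene had probe sets called in opposite directions. That could not arise for Ezh1, Ezh2 and Phf19, with only 1 called probe set each, or for Eed, which had no called one. Apart from the brighter Eed probe set, which averaged 12.45, the probe sets that did not pass averaged 7.88 or less.

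**Figure D2:**
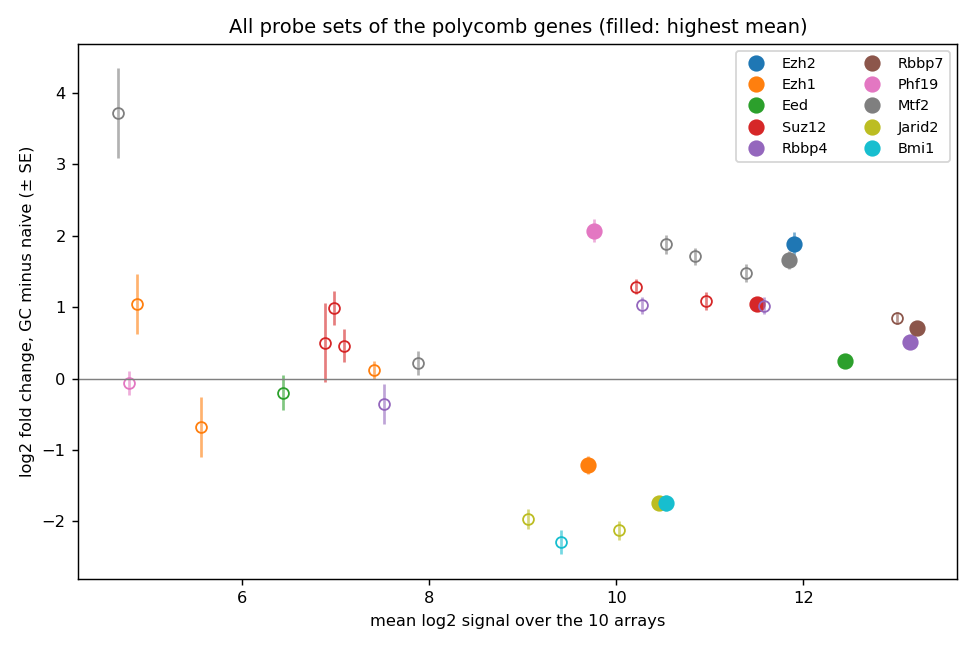
Log2 fold change of GC minus naive (y axis, ± SE) against the mean log2 signal over the 10 arrays (x axis) for all 32 single-symbol probe sets of the polycomb genes, coloured by gene, with the probe set used for each gene filled. Probe sets above a mean of 8 share a direction within each gene, but Ezh1, Ezh2, Eed and Phf19 have only 1 each. Probe sets with a direction opposite to the filled one of their gene lie at 7.52 or below.

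Promoters are shown for the 3 rising genes that hold an E2F-type word and for Ezh1 and Bmi1, 2 of the falling genes. RefSeq promoter windows (GRCm38.p6, 250 bases before to 50 after an annotated start) matched all 10 genes, in 12 windows. Each was searched on both strands for the E2F words TTTGGCGC, TTTCGCGC, TTTCCCGC and TTTGCCGC, for CCAAT, and for the cell cycle word TTTGAA, and no E2F match overlapped a match of another word. E2F words stood in the windows of Ezh2, Suz12 and Phf19, and in 2.26% of all 32851 windows. The CCAAT word stood in windows of 7 of the 10 genes and in 37.4% of all windows, and TTTGAA in those of 3 genes and in 17.9%. G and C made up 45.7% to 75.7% of these 12 windows, against a median of 52.7% over all windows, and words rich in G and C occur more often in such sequence. The words were chosen with the changes known, and a match is not a bound site. Below, 5′ to 3′ on the gene's strand, capitals mark E2F and CCAAT words; each sequence ends at the start site, except that of Ezh2, which runs 11 bases past it to the end of its E2F word.
Ezh2 (chr6:47595020-47595280, minus strand): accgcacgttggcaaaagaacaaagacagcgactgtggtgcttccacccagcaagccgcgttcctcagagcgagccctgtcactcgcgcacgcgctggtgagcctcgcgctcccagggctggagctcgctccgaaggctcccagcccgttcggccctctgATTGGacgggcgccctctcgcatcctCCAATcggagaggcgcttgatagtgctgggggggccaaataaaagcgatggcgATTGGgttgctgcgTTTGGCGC
Suz12 (chr11:79992856-79993105, plus strand): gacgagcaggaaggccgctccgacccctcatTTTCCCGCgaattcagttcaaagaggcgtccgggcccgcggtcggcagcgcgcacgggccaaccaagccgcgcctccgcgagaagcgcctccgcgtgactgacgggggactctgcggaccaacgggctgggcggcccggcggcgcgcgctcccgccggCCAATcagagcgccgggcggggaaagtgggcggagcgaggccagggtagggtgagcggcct
Phf19 (chr2:34913977-34914226, minus strand): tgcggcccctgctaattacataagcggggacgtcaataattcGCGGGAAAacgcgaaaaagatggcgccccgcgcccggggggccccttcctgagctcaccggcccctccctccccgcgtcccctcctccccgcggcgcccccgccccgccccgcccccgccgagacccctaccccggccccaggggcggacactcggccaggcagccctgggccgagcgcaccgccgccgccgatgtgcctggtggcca
Ezh1 (chr11:101226464-101226713, minus strand): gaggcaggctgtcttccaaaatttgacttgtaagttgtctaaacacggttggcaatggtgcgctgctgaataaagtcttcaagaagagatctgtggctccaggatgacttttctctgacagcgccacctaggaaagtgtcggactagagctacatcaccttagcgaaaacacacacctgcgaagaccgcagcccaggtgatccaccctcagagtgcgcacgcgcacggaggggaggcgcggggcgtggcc
Bmi1 (chr2:18676768-18677017, plus strand): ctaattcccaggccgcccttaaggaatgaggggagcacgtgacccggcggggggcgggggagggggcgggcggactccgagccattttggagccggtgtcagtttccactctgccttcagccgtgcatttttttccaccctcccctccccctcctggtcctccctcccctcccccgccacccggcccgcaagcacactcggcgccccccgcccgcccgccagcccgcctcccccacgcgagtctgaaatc

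In Ezh2 the E2F word TTTGGCGC begins 4 bases into the transcript, behind 3 CCAAT words, and in Suz12 and Phf19 the word is TTTCCCGC, 219 and 208 bases before the start, on opposite strands. The windows of Ezh1 and Bmi1 hold neither word, and the Jarid2 windows hold 1 CCAAT word each and no E2F word. All 3 genes with an E2F word rose, but the windows of the other rising genes, Mtf2, Eed, Rbbp4 and Rbbp7, hold no such word. Whether E2F proteins act on these genes was not tested.

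The changes were then read in each line. Against naive cells, 6 of the 10 genes rose and 3 fell in GC B1-8 (33.7% of all tested genes were called, 16.4% higher and 17.3% lower), and 7 rose and 3 fell in GC V23 (37.9% called, 18.2% higher and 19.7% lower). With each array centred on its median, V23 minus naive had 3824 genes higher and 2536 lower, against 3127 and 3386 as deposited. Both comparisons use the same naive arrays. Eed was the gene called in V23 (0.29 ± 0.10, limma adjusted p = 0.0449) but not in B1-8 (0.19 ± 0.10, limma adjusted p = 0.19). The V23 call of Eed was lost in 15 of 22 alternatives, whose adjusted p ran from 0.00766 to 0.957 in all, and was 0.134 without naive replicates 2 and 4; 6 polycomb genes were then higher. Ezh2 rose by 1.85 ± 0.19 in B1-8 and 1.92 ± 0.19 in V23, and Phf19 by 2.00 ± 0.18 and 2.13 ± 0.18. The falls were -1.05 ± 0.15 and -1.37 ± 0.15 for Ezh1, -1.59 ± 0.12 and -1.90 ± 0.12 for Jarid2, and -1.70 ± 0.13 and -1.79 ± 0.13 for Bmi1, in B1-8 and in V23.

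**Figure D3:**
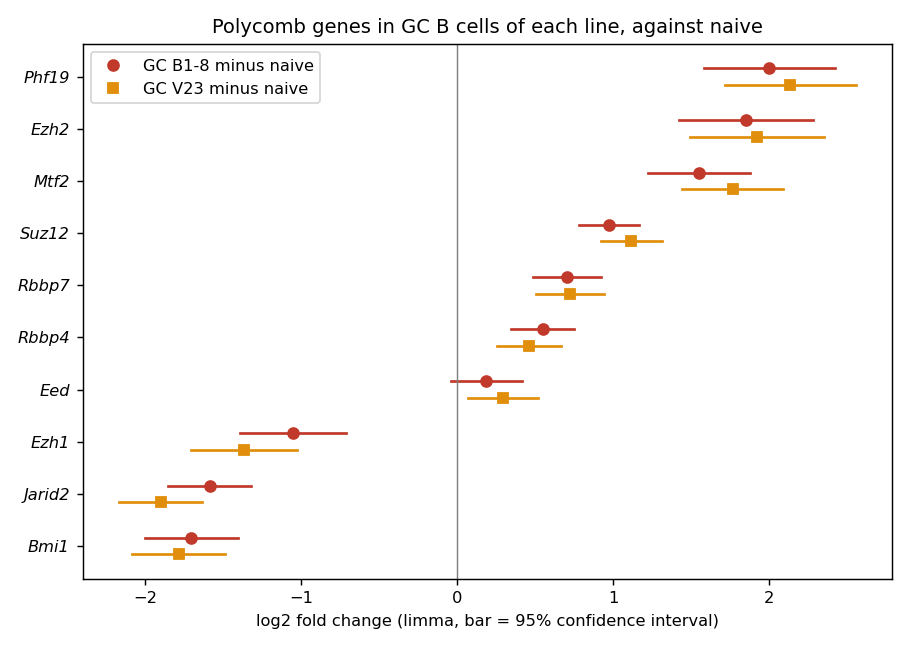
Log2 fold change against naive (x axis) for each polycomb gene in GC B1-8 (red circles) and GC V23 (orange squares), with 95% confidence intervals from limma. The intervals of the 2 lines overlap for every gene, and in B1-8 the interval of Eed includes 0.

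B1-8 B cells are known to bind the hapten with higher affinity than V23 B cells, which is the question behind setting the lines side by side. In GC B1-8 minus GC V23, 0 of the 10 genes passed the limma test (1 at an unadjusted p under 0.05), where 0.0233% of all tested genes did, 0.00581% higher and 0.0174% lower. The gene with the unadjusted p under 0.05 was Jarid2, higher in B1-8 by 0.31 ± 0.12 (95% interval 0.03 to 0.60, adjusted p = 0.615). Ezh1 was at 0.32 ± 0.16 (-0.05 to 0.68) and Ezh2 at -0.07 ± 0.20 (-0.53 to 0.39). No interval of the 10 genes reached beyond 0.68 in either direction.

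Genes of the cell cycle moved with the groups. In GC cells the mitosis list rose in 15 of 15 measured genes, with a median log2 fold change of 3.06, and the replication list in 15 of 16, with a median of 1.81, beside 0.06 over all tested genes. Of all tested genes 20.5% were called higher. The mean log2 signal of the mitosis list was 11.45 to 11.57 in GC B1-8 and 11.74 to 11.85 in GC V23, against 7.95, 9.40, 8.19 and 8.68 in naive replicates 1 to 4. Naive replicates 2 and 4, highest in this list, were also the highest naive arrays for Ezh2 (11.29 and 10.78) and Phf19 (8.79 and 8.84), and the lowest for Ezh1 (10.32 and 10.35). The other genes did not keep this order in both arrays. Naive replicate 4 was the highest naive array for Bmi1 (11.72) and second highest for Jarid2 (11.52), which both fell in GC cells, and the lowest for Eed (12.20) and Rbbp4 (12.78), which rose. Naive replicate 2 was the highest naive array for 5 of the 7 rising genes and the lowest for 2 of the 3 falling genes, Ezh1 and Bmi1. Without both replicates Ezh2 rose by 2.15, Phf19 by 2.36 and Ezh1 fell by 1.30. The part of cell division in these changes was not tested.

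**Figure D4:**
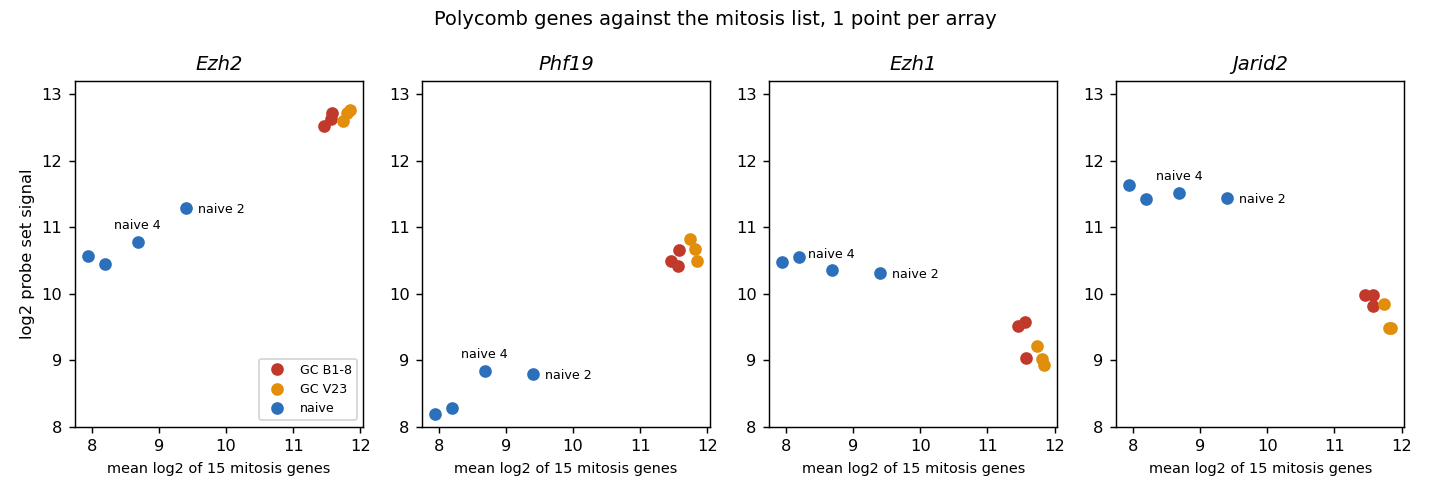
Log2 signal of Ezh2, Phf19, Ezh1 and Jarid2 (y axis) against the mean log2 signal of 15 mitosis genes (x axis), 1 point per array in the colours of the groups. Naive replicates 2 and 4 lie to the right of the other naive arrays, and the GC arrays form a separate cluster, so no correlation is given.

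The tested genes with the profile most like Ezh2 over the 10 arrays, by the root-mean-square difference of log2 values centred on each gene's mean, were Cks1b, a partner of cyclin-dependent kinases (0.08), Smc2, a condensin subunit (0.10), Mcm3, of the replicative helicase (0.10), Gins2, of the same helicase complex (0.10), and Dut, which removes dUTP (0.11). Among the polycomb genes Phf19 (0.20) and Mtf2 (0.21) came nearest to Ezh2, at ranks 83 and 94 of all tested genes. The profiles most like Ezh1 were those of Zyx, an adhesion protein (0.08), Sfxn2, a mitochondrial carrier (0.10), Man1a, a mannosidase (0.12), Unkl (0.12) and Ahcyl2 (0.12). Jarid2 at 0.29 and Bmi1 at 0.33 were farther, at ranks 664 and 1033. The measure is not scaled, so it largely reflects the size of the change from naive to GC. The 5 genes nearest Ezh2 changed by 1.81 to 1.96, and the 5 nearest Ezh1 by -1.23 to -1.14.

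Beyond the 10 genes, the remaining polycomb-like gene fell while the PRC2.2 partner of Jarid2 showed no call. Of 3 further PRC2 genes, 0 rose and 1 fell by limma (1 of the 3 at an unadjusted p under 0.05), with a median of 0.05. Over all tested genes 20.5% were called higher and 21.0% lower. Phf1 (1416542_at) had signals of 9.34, 9.25 and 9.55 in GC B1-8 and 8.98, 9.31 and 9.09 in GC V23, against 10.38, 10.31, 10.53 and 10.58 in naive cells, with no overlap. It fell by 1.20 on the log2 scale (SE 0.10, limma adjusted p = 3.09e-05), opposite to its relatives Mtf2 and Phf19. Aebp2 was at 0.05 ± 0.09 (95% interval -0.15 to 0.26, adjusted p = 0.684) and Epop, a PRC2.1 partner, at 0.13 ± 0.23 (adjusted p = 0.691).

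Of 22 further PRC1 genes, 4 rose, 7 fell and 11 did not pass, with a median of 0.01, where 20.5% of all tested genes rose and 21.0% fell. Cbx7, a reader of the methyl mark, fell to a mean of 8.42 in GC B1-8 and 8.22 in GC V23, against 10.26 in naive cells (-1.93 ± 0.11, limma adjusted p = 4.44e-06). Phc3, a polyhomeotic subunit, changed by -1.57 ± 0.13, and the ubiquitin ligase Rnf2 by -0.65 ± 0.06. The 4 that rose were the readers Cbx6 (0.98 ± 0.13) and Cbx2 (0.72 ± 0.11), with Yaf2 (0.75 ± 0.08) and Bcor (0.61 ± 0.10), subunits of variant PRC1 complexes.

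Of 8 genes for the removal of polycomb marks, 2 rose and 3 fell (median -0.10). Beside this list and the MLL list below, 20.5% of all tested genes rose and 21.0% fell. Asxl1, a cofactor of the histone deubiquitinase Bap1, rose by 0.59 ± 0.06, while the deubiquitinases Mysm1 and Usp16 changed by -0.99 ± 0.12 and -0.42 ± 0.07. Of 9 genes of the MLL complexes, which place activating methyl marks, 4 rose and 3 fell (median 0.05). The methyltransferases Kmt2c and Kmt2d changed by -1.18 ± 0.11 and -1.23 ± 0.18, and the subunit Men1 by 0.61 ± 0.11.

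Genes described as polycomb targets in B cells were read last. Of 7, 2 rose, 2 fell and 3 did not pass (median 0.31), where 20.5% of all tested genes rose and 21.0% fell. Cdkn1b, an inhibitor of cyclin-dependent kinases, averaged 9.16 ± 0.14 in GC B1-8 and 8.49 ± 0.13 in GC V23 (SD, n = 3 each), against 11.76 ± 0.14 in naive cells (SD, n = 4), with no overlap of the arrays. It changed by -2.93 ± 0.10 (limma adjusted p = 6.18e-07). Cdkn1b in B1-8 minus V23 was 0.66 ± 0.13 (limma unadjusted p = 0.000626, adjusted p = 0.252). This did not pass. Every B1-8 array lay above every V23 array, and the share of all tested genes with such a separation between the lines was not counted. Between the lines 0 of the 7 targets passed, where 0.0233% of all tested genes did. The unadjusted p was under 0.05 for 2 of the 7, Cdkn1b and Cdkn2a. Irf4, which drives plasma cell fate, changed by -1.91 ± 0.11, and Prdm1, which drives it with Irf4, was at 0.05 ± 0.23 (adjusted p = 0.897). The kinase inhibitors Cdkn2c and Cdkn2b rose, by 2.30 ± 0.19 and 1.77 ± 0.60, the second from naive arrays of 3.50, 6.30, 4.32 and 4.29 that overlap the GC range. Cdkn1a was at 0.31 ± 0.17 (adjusted p = 0.185). Cdkn2a was at 0.54 ± 0.39 (adjusted p = 0.316) in the mean of the lines, at -0.24 ± 0.47 in B1-8 (adjusted p = 0.737) and at 1.33 ± 0.47 in V23 (adjusted p = 0.0533). B1-8 minus V23 was -1.57 ± 0.50 (unadjusted p = 0.0127, adjusted p = 0.55), which did not pass. The signals were 5.25, 5.22 and 6.23 in GC B1-8 and 7.27, 6.15 and 7.99 in GC V23, against 5.99, 5.16, 5.78 and 6.30 in naive cells, and the naive range overlapped those of both lines.

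**Figure D5:**
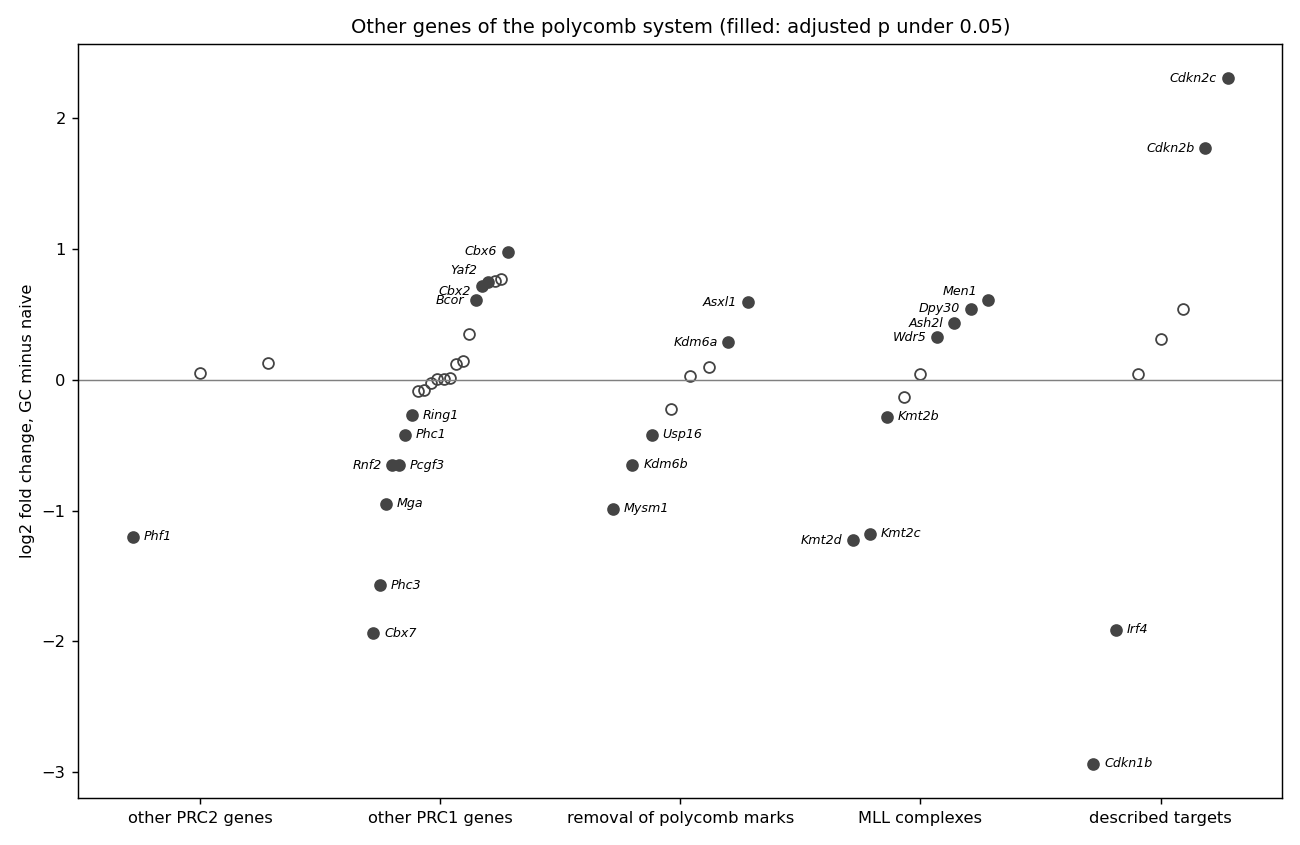
Log2 fold change of GC minus naive (y axis) for the tested genes of 5 lists around the polycomb complexes (x axis), 1 point per gene in order of its change, filled and named where the limma adjusted p was under 0.05. Each list other than the 3 further PRC2 genes holds called genes in both directions, where 20.5% of all tested genes were called higher and 21.0% lower.

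All 5 measured GC markers rose in GC cells (Bcl6 by 1.11 ± 0.12, S1pr2 by 3.89 ± 0.39, Mybl1 by 4.22 ± 0.37) and all 5 naive B cell markers fell (Bcl2 at -3.88 ± 0.16, Klf2 at -3.79 ± 0.18, S1pr1 at -3.05 ± 0.14). The mean log2 signal of the GC markers was 11.95 to 12.06 in GC B1-8 and 11.91 to 12.03 in GC V23, against 8.08, 9.80, 8.24 and 9.01 in naive replicates 1 to 4. Naive replicates 2 and 4 were thus higher in the mean of the GC markers as well as in that of the mitosis genes. Gcsam, a germinal centre signalling protein, was at 8.52 and 7.25 there, against 5.25 on each of the other naive arrays. Bcl6 did not keep this order, with naive replicate 4 (11.85) below naive replicate 3 (11.88). Of 5 B cell markers 2 fell, Pax5 (-1.32 ± 0.21) and Cd79a (-0.40 ± 0.13). All 11 neutrophil markers rose, among them Lcn2 by 4.70 ± 0.57, Camp by 4.01 ± 0.43 and Ltf by 3.81 ± 0.41. Their mean log2 signal was 10.66 to 10.70 in GC B1-8 and 10.07 to 10.94 in GC V23, against 7.04 to 8.90 in naive cells, with naive replicate 4 highest. Of 6 plasma cell markers 2 rose and 1 fell. Called markers of the other lists all fell: 2 of 7 macrophage, 1 of 7 T cell, 1 of 3 erythroid and 1 of 6 stromal markers. Beside these marker counts, 20.5% of all tested genes were called higher and 21.0% lower. RNA quality also moved with the groups, with an Actb 3′ minus 5′ probe difference of 0.98 ± 0.20 in GC B1-8, 0.78 ± 0.08 in GC V23 and 1.46 ± 0.17 in naive arrays (SD). The part of neutrophil RNA and of RNA quality in the polycomb changes was not tested.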

How the data were processed

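Total RNA from sorted B cells was hybridized to 10 Affymetrix mouse arrays (3 GC B1-8, 3 GC V23, 4 naive), per the labels' protocols. The deposited values are log2 signals, and GCRMA is named per the submitters' processing notes, with no version. The values have no floor, and on every array the mean of the unlogged signals, with 2% trimmed at each end, was 500, the form of MAS5 scaling. They were used as deposited. Array medians lay between 6.70 and 7.04, and arrays give no counts, so their number limits the precision.

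Of 45101 probe sets, 34958 carry 1 gene symbol, 932 several and 9211 none in the platform annotation used here. Genes with log2 above 4 on at least 3 arrays were tested (17204), by two-sided moderated tests of limma 3.58.1 (R 4.3.3) without an intensity trend. The model left 7 residual degrees of freedom and eBayes added 1.46. All 10 polycomb genes are named, as is every listed target. Of each other list up to 3 genes with the smallest p in GC minus naive are named, and the 5 profiles most like Ezh2 and Ezh1. Cbx6, Cbx2, Yaf2, Bcor and Gcsam were named after their values were seen. The members, the 16 other lists (143 genes, 133 tested, 9 with no probe set of their symbol alone and not analysed here) and the tests were chosen with earlier results of these data known. The fit was tested on simulated data. Replicates were distinct, with r between 0.950 and 0.959 within groups across genes. Deviations of same-numbered arrays from their group means correlated at -0.02 to 0.07. Low correlations cannot show that replicate numbers do not pair samples, and the main model used no pairing. Figures were drawn with matplotlib 3.10.9.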

Additional observations from a re-analysis of the deposited data

Results flagged for a closer look

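Of 70 named genes, 3 had a naive array far from the other 3 naive arrays (a gap to the nearest array above 0.829 of the group's range, which chance gives in about 1 group in 20). All 3 were naive replicate 4, and none was a polycomb gene. Its log2 signal was 11.74 for Klf2, a quiescence factor of naive B cells, against 12.07 to 12.11 on the others. It was 12.45 for Xbp1, a secretory regulator, against 12.77 to 12.80, and 6.68 for Klf1, an erythroid factor, against 5.63 to 5.66.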

How the results depend on the processing

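Of 650 recomputed values of a polycomb gene against naive cells, over 22 alternatives, 618 kept their direction and side of the threshold. The 32 others lost the call: 29 were Eed and 3 were Ezh1 with the mean of its probe sets. Eed ranged from 0.02 to 0.34 in GC minus naive over the alternatives (adjusted p 0.00874 to 0.93). Polycomb genes called higher numbered 6 or 7 and lower 2 or 3 in GC minus naive throughout, and Ezh2 ranged from 1.78 to 2.15. Phf19 rose by 1.00 with the mean of its probe sets. Between the lines no polycomb gene was called under any alternative. Of differences between the lines that changed sign, the mean of probe sets gave 0.010 for Eed, 0.0058 for Phf19, 0.12 for Mtf2 and -0.018 for Bmi1. Leaving out 1 array at a time gave -0.073 to 0.026 for Rbbp7 and -0.043 to 0.17 for Bmi1. Over all genes, 1 was higher and 3 lower in B1-8 than in V23, and 0 to 12 higher and 0 to 5 lower over the alternatives. Centring each array on its median gave a median change of all genes in V23 minus naive of 0.19, against 0.06 as deposited, and called 4165 genes higher and 2912 lower in GC minus naive, against 3521 and 3619 as deposited; all 10 polycomb genes kept their calls. The replicate block, which leaves naive replicate 4 without a partner and so out of the estimate, ended the call of Eed (0.20, adjusted p = 0.0954) and no other of GC minus naive.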
